A study of Homo sapiens with 24 samples.

Results

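Of the 33126 genes with a transcript in the count table of a dexamethasone time course in A549 cells, 10 genes that set or mark epithelial and mesenchymal identity were followed here. They were chosen by name, with earlier results of these data known, so counts of calls among them are a description. *SNAI1*, *SNAI2*, *ZEB1*, *ZEB2* and *TWIST1* encode transcription factors. *CDH1* and *EPCAM* encode epithelial surface proteins, and *CDH2*, *VIM* and *FN1* are used as mesenchymal markers. Their 64 transcript rows were summed per gene. All 10 passed the filter on low counts that left 15337 genes for testing. A549 is an established line from a human lung adenocarcinoma. Cells received 100 nM dexamethasone (dex), a synthetic glucocorticoid (GC), or the ethanol vehicle (EtOH) at 0.02% of the medium by volume, and poly-A RNA was sequenced after 1, 3, 5, 7, 9 or 11 h. Each treatment and time had 2 libraries labelled as biological replicates, so 12 dex and 12 EtOH libraries were compared. There was no untreated group, and the dex cells carried the same ethanol as the controls. The duration in the labels was used, although the treatment text of every library gives 1 h.

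The epithelial-mesenchymal transition (EMT) is a change of cell state in which cells lose cell-cell junctions and apical-basal polarity and gain motility and a fibroblast-like shape. The SNAI and ZEB factors are zinc finger repressors that bind E-box sequences, among them those of the E-cadherin gene, and TWIST1 is a basic helix-loop-helix factor of the same programme. A549 cells are known for a mixed state with epithelial keratins and abundant vimentin. GCs act through the glucocorticoid receptor (GR), a ligand-activated transcription factor, and dex is known to alter adhesion and matrix genes in lung epithelial cells.

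In GRCh38 coordinates of GENCODE release 29, the transcription factor genes lie at chr20:49982999-49988886 (*SNAI1*), chr8:48917604-48921740 (*SNAI2*), chr10:31318495-31529814 (*ZEB1*), chr2:144364364-144524583 (*ZEB2*) and chr7:19020991-19117672 (*TWIST1*). The surface and matrix genes lie at chr16:68737225-68835548 (*CDH1*), chr2:47345158-47387601 (*EPCAM*), chr18:27950966-28177446 (*CDH2*), chr10:17228259-17237593 (*VIM*) and chr2:215360440-215436172 (*FN1*). Counts were of transcripts, so they cover the exons and untranslated regions as annotated, among them a *VIM* transcript with a retained intron and 3.42% of the *VIM* counts.

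Library totals ranged from 7813353 to 13619043 counts in EtOH and from 6708864 to 13748598 in dex. All 5 GR target genes used as a check of the labels (*FKBP5*, *TSC22D3*, *PER1*, *KLF9* and *SGK1*) had both dex libraries above both EtOH libraries at 6 of 6 time points. The share of all genes that separate in this way is not given, so here and below such separation is a description. The 8 lung epithelial markers summed to between 3861 and 6248 CPM (counts scaled to library size) in EtOH and between 4541 and 12300 in dex, nearly all from keratins. Of the 8, 5 were tested for the dex effect averaged over the time points. *KRT8*, *KRT18* and *KRT7* were called higher (16.9% of all genes were) and *KRT19* lower (18.9% of all genes), and the alveolar marker *NAPSA* was not called. The other 3, the alveolar and lung lineage markers *NKX2-1*, *SFTPB* and *SFTPC*, never exceeded 7 counts in a library. Of 8 fibroblast markers, 5 were tested, and 3 of them were called lower on average over the time points, against 18.9% of all genes. The summed level of the 8 was 17.6 to 24.7 CPM in EtOH and 9.29 to 29.3 CPM in dex. The 4 blood markers summed to at most 0.296 CPM and the 2 endothelial markers with a row to at most 1.06 CPM. Replicates differed most between the dex libraries at 11 h, and the biological coefficient of variation ran from 6.49% at 7 h to 12.7% at 11 h. In bulk RNA, a change in the share of cells in a given state and a change of RNA per cell cannot be told apart.

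**Figure D1:**
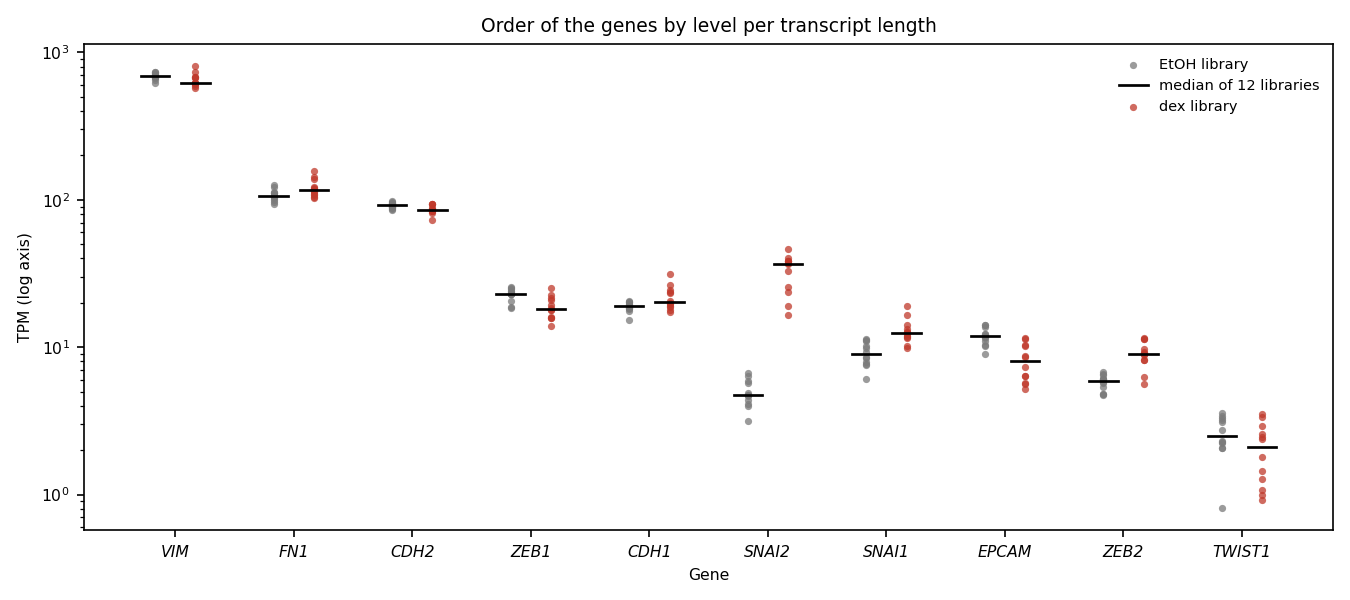
Level of the 10 genes per transcript length, as TPM (counts scaled to transcript length and library size) on a log axis, with a point for each of the 12 EtOH (grey) and 12 dex (red) libraries and a bar at the median of each treatment. *VIM* stood above all others, and *SNAI2* moved from a median of 4.74 TPM in EtOH to 36.9 TPM in dex.

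The vehicle cells showed a mixed profile. On the TPM scale, which divides counts by transcript length and allows genes to be compared with each other, *VIM*, the intermediate filament of mesenchymal cells, had a median of 688 in EtOH (range 616 to 737). *FN1*, the matrix protein fibronectin, followed at 106 (94.0 to 125) and *CDH2*, N-cadherin, at 91.5 (85.1 to 97.4). *ZEB1* at 23.1 (18.4 to 25.6) and *CDH1*, E-cadherin, at 19.04 (15.3 to 20.6) came next. *EPCAM*, an epithelial adhesion molecule, was at 11.9 (9.01 to 14.2) and *SNAI1* at 8.95 (6.10 to 11.4). The lowest were *ZEB2* at 5.92 (4.73 to 6.74), *SNAI2* at 4.74 (3.15 to 6.73) and *TWIST1* at 2.52 (0.81 to 3.58). The ranges overlapped between *FN1* and *CDH2*, between *ZEB1* and *CDH1*, between *EPCAM* and *SNAI1*, and between each neighbouring pair of *SNAI1*, *ZEB2*, *SNAI2* and *TWIST1*. Within each EtOH library *SNAI1* was above *ZEB2*. The order of each other pair was reversed in some EtOH library, so it did not exceed the spread over libraries. Transcript lengths came from a later annotation than the one counted, so levels per length are approximate.

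In dex the order was partly different. *SNAI2* reached a median of 36.9 TPM (16.5 to 46.2), above the medians of *CDH1* at 20.3 (17.3 to 31.5) and *ZEB1* at 18.1 (13.98 to 25.1). Its TPM depends on the lengths given to its transcripts, 2010 and 626 bases, which held near-equal counts. *SNAI1* stood at 12.5, *ZEB2* was at 9.05 (5.64 to 11.6), *EPCAM* ranged up to 11.5, and *TWIST1* was again the lowest at 2.09 (0.925 to 3.53). *VIM* at 620 (574 to 802), *FN1* at 116 (103 to 157) and *CDH2* at 85.2 (73.0 to 93.9) remained the 3 highest of the 10.

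**Figure D2:**
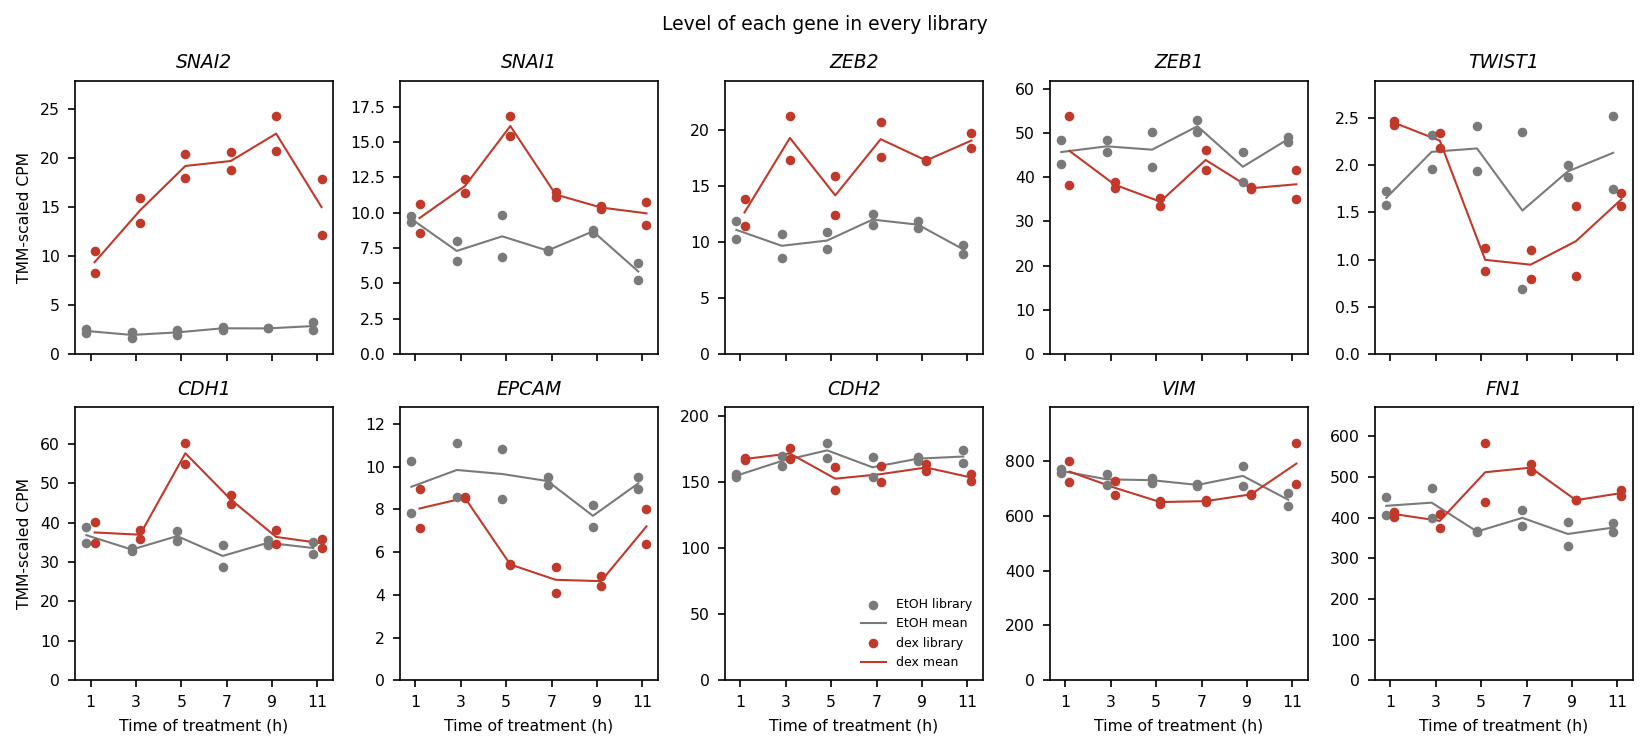
TMM-scaled CPM of each gene against hours of treatment, with a point per library and a line through the mean of the 2 libraries for EtOH (grey) and dex (red); each panel has its own axis from 0. *SNAI2* separated at every time point, and *CDH1* peaked at 5 h in dex.

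The first question was at which times dex changed each gene, and 25 of 60 gene and time pairs passed edgeR's quasi-likelihood test at an adjusted p of at most 0.1, 20 higher and 5 lower in dex. At 1 h, *SNAI2* alone of the 10 was called, higher, where 0.639% of all tested genes were called higher and 0.417% lower. At 3 h, *SNAI2*, *SNAI1* and *ZEB2* were higher, against 8.42% of all genes higher and 5.65% lower. At 5 h, 8 of the 10 were called: *SNAI2*, *SNAI1*, *ZEB2*, *CDH1* and *FN1* higher (12.4% of all genes were called higher) and *EPCAM*, *ZEB1* and *TWIST1* lower (12.6% of all genes). At 7 h the same 5 genes were higher, against 14.7% of all genes, and *EPCAM* was lower, against 13.5%. At 9 h, *SNAI2*, *ZEB2* and *FN1* were higher, against 10.8%, and *EPCAM* was lower, against 8.95%. At 11 h, *SNAI2*, *SNAI1* and *ZEB2* were higher, against 5.8%, and none of the 10 was called lower, against 3.33%. *SNAI2* was called at 6 time points, *ZEB2* at 5, *SNAI1* at 4, *EPCAM* and *FN1* at 3, *CDH1* at 2, *ZEB1* and *TWIST1* at 1, and *CDH2* and *VIM* at 0.

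In a fit over all 24 libraries, the dex effect averaged over the 6 time points passed the threshold for 8 of the 10 genes. *SNAI2*, *SNAI1*, *ZEB2*, *CDH1* and *FN1* were higher, against 16.9% of all genes, and *EPCAM*, *ZEB1* and *TWIST1* were lower, against 18.9%. Since the 10 were chosen with earlier results known, setting their counts beside these shares is not a test of the set. The median averaged log2 fold change was 0.08 over the 10 and -0.0038 over all genes tested. Transcription factors stood on both sides, *SNAI2*, *SNAI1* and *ZEB2* higher and *ZEB1* and *TWIST1* lower, and so did the epithelial surface genes, *CDH1* higher and *EPCAM* lower. Of the mesenchymal markers, *FN1* was higher and *CDH2* and *VIM* were not called.

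**Figure D3:**
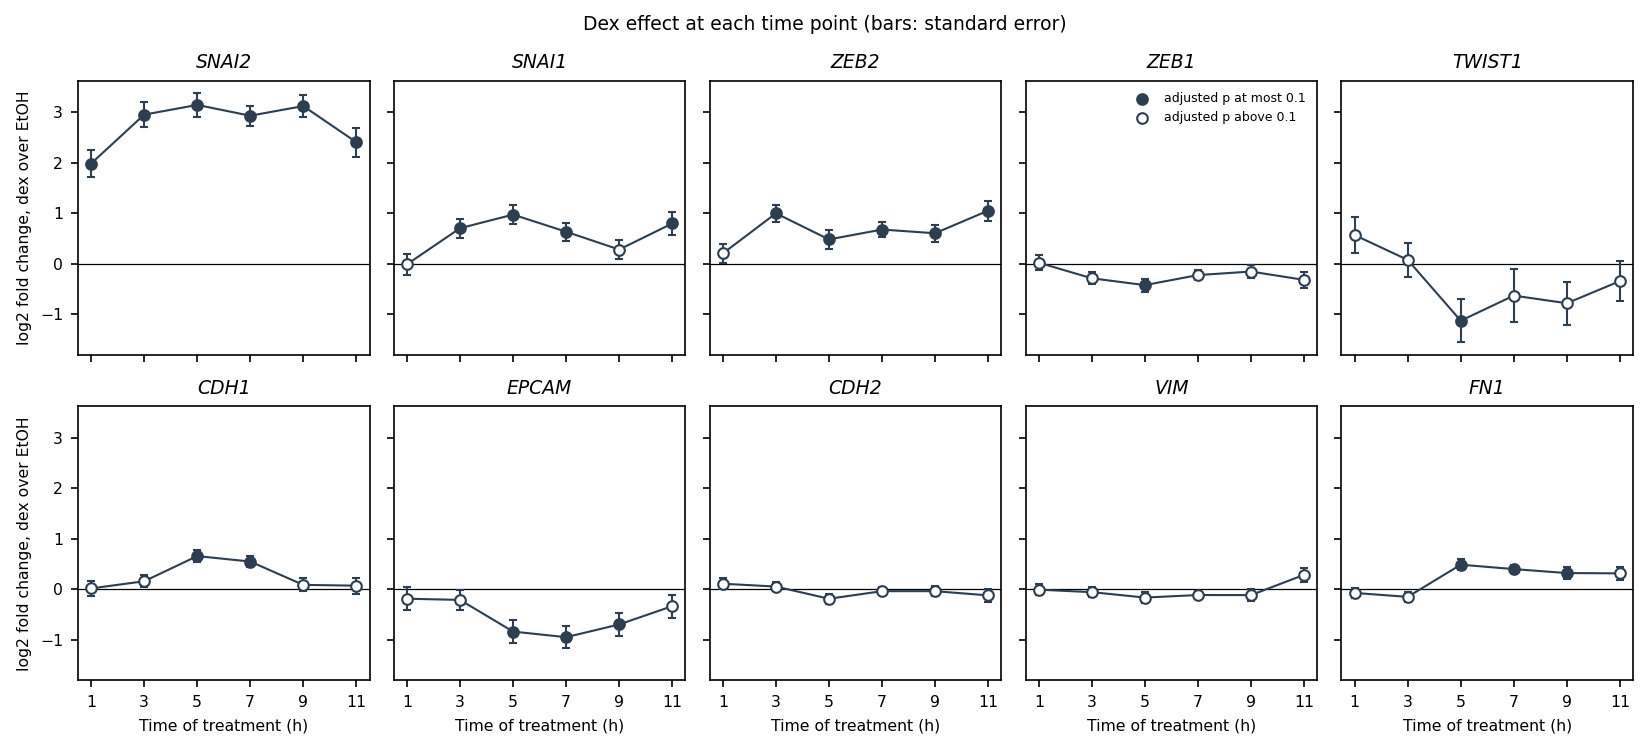
Log2 fold change of dex over EtOH at each time point with its standard error, on a shared axis; filled points passed an adjusted p of 0.1 in the fit of that time point and open points did not. *SNAI2* reached 3.14 at 5 h, and *CDH2* and *VIM* had no filled point.

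*SNAI2*, which encodes the repressor SLUG, rose at every time point. Its level in EtOH lay between 1.58 and 3.27 CPM with a median of 2.46 over 12 libraries, from 19 to 30 counts each. In dex it was 8.20 and 10.5 CPM at 1 h, 13.4 and 15.9 at 3 h, 20.4 and 17.9 at 5 h, 20.6 and 18.7 at 7 h, 24.2 and 20.7 at 9 h, and 17.8 and 12.1 at 11 h. The lowest dex library was above the highest EtOH library. The log2 fold change was 1.98 ± 0.26 (SE; adjusted p = 0.00017, edgeR) at 1 h and 3.14 ± 0.23 (adjusted p = 7.19e-15, edgeR) at 5 h. The effect was 3.12 ± 0.21 at 9 h and 2.40 ± 0.29 at 11 h, and the average was 2.75 ± 0.10, or 6.71-fold (adjusted p = 7.62e-19, edgeR). All 6 calls held without each library in turn and under every other setting tried. The difference of the effect among time points did not pass (adjusted p = 0.124, edgeR); it did without the filter on low counts (0.0655), without dex replicate 1 at 11 h (0.027) and without dex replicate 2 at 1 h (0.0979).

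*SNAI1*, which encodes the related repressor SNAIL, rose later and by less. In EtOH it ranged from 5.24 to 9.82 CPM with a median of 7.66. In dex the libraries held 8.59 and 10.6 CPM at 1 h, 11.4 and 12.4 at 3 h, 16.8 and 15.5 at 5 h, 11.1 and 11.5 at 7 h, 10.3 and 10.5 at 9 h, and 10.8 and 9.15 at 11 h. Both dex libraries were above both EtOH libraries of their time at 5 of 6 time points, and the groups overlapped at 1 h. The log2 fold change was -0.01 ± 0.21 at 1 h, 0.97 ± 0.19 at 5 h (1.96-fold; adjusted p = 0.000113, edgeR) and 0.28 ± 0.19 at 9 h (adjusted p = 0.39, edgeR). Averaged over time it was 0.55 ± 0.08 (adjusted p = 9.98e-07, edgeR). The effect differed among time points at an adjusted p of 0.0698 (edgeR), a call lost in 8 of 24 fits that each left out 1 library, with an adjusted p of up to 0.215 without dex replicate 1 at 1 h. The call at 3 h was lost without EtOH replicate 1 (adjusted p = 0.159), that at 7 h without dex replicate 1 (0.11), and that at 11 h without EtOH replicate 1 (0.256) or 2 (0.676). DESeq2 called *SNAI1* at 5 h only; its adjusted p was 0.133 at 3 h, 0.125 at 7 h, 0.258 at 11 h and 0.138 for the difference among time points.

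*ZEB2* rose at 3 h and stayed above its vehicle level at each later time. The EtOH libraries lay between 8.57 and 12.5 CPM with a median of 10.8. The dex libraries held 13.8 and 11.4 CPM at 1 h, 17.3 and 21.2 at 3 h, 15.8 and 12.4 at 5 h, 17.6 and 20.7 at 7 h, 17.2 and 17.3 at 9 h, and 19.7 and 18.4 at 11 h. Against the EtOH libraries of the same time they overlapped at 1 h only, and 1 dex library at 5 h was also within the range of all 12 EtOH libraries. On the log2 scale the fold change was 0.99 ± 0.17 at 3 h (adjusted p = 0.000172, edgeR), 0.48 ± 0.19 at 5 h and 1.05 ± 0.20 at 11 h, where it was 2.07-fold (adjusted p = 0.00515, edgeR). The average was 0.66 ± 0.07 (adjusted p = 9.46e-09, edgeR). The call at 5 h (adjusted p = 0.065) was lost without dex replicate 1 (0.479), EtOH replicate 1 (0.307) or EtOH replicate 2 (0.107), that at 9 h without dex replicate 1 (0.225) or 2 (0.252), and that at 11 h without EtOH replicate 2 (0.131). DESeq2 did not call 5 h (adjusted p = 0.289) or 9 h (0.125). The most counted transcript by itself was called at 3 h and not at 5 h (adjusted p = 0.588, edgeR), 7 h (0.366), 9 h (0.241) or 11 h (0.18).

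*ZEB1*, the paralog of *ZEB2*, moved the other way. Its EtOH level was 39.0 to 53.0 CPM with a median of 48.3, and its dex level was 33.6 to 53.8 CPM with a median of 38.0. At 5 h the EtOH libraries held 42.3 and 50.2 CPM and the dex libraries 35.4 and 33.6. Both dex libraries were below both EtOH libraries at 5 of 6 time points, and the 2 dex libraries at 1 h, with 53.8 and 38.2 CPM, lay on either side of the EtOH pair. Of those time points only 5 h was called, and the separation is a description. Log2 fold changes were -0.43 ± 0.13 at 5 h (adjusted p = 0.0111, edgeR) and -0.24 ± 0.06 on average (adjusted p = 0.00104, edgeR). The single call at 5 h was lost without EtOH replicate 2 (adjusted p = 0.23) and on the most counted transcript (0.327), while calls were gained at 7 h without EtOH replicate 2 (0.0667) or with a filter of 10 counts (0.0842) and at 11 h without dex replicate 1 (0.00286).

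*TWIST1* was the least counted of the 10, with 6 to 29 counts per library, and its values are the least precise. The EtOH libraries ranged from 0.688 to 2.52 CPM with a median of 1.95. The dex libraries held 2.47 and 2.43 CPM at 1 h and 2.18 and 2.34 at 3 h, then 0.874 and 1.12 at 5 h, 1.10 and 0.792 at 7 h, 1.57 and 0.822 at 9 h, and 1.57 and 1.70 at 11 h. At 5 h both dex libraries lay below both EtOH libraries (1.94 and 2.41 CPM), with a log2 fold change of -1.13 ± 0.43 (adjusted p = 0.0532, edgeR). That call was lost without dex replicate 1 (adjusted p = 0.216) or EtOH replicate 2 (0.286) and with DESeq2 (0.348), and a call was gained at 7 h without EtOH replicate 1 (0.0713), the library with 0.688 CPM. The average of -0.38 ± 0.17 passed (adjusted p = 0.0881, edgeR) but was lost in 16 of 24 fits that each left out 1 library, with an adjusted p of up to 0.423, reached without EtOH replicate 2 at 7 h, and with DESeq2 (0.191).

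*CDH1* rose at 5 and 7 h and was not called before or after. Its EtOH libraries lay between 28.7 and 38.8 CPM with a median of 34.6. The dex libraries held 34.8 and 40.3 CPM at 1 h, 38.1 and 35.8 at 3 h, 60.3 and 55.0 at 5 h, 44.8 and 47.0 at 7 h, 34.5 and 38.3 at 9 h, and 35.9 and 33.6 at 11 h. The 4 dex libraries at 5 and 7 h were above all 12 EtOH libraries. The log2 fold change was 0.16 ± 0.12 at 3 h, 0.65 ± 0.12 at 5 h (1.57-fold; adjusted p = 3.94e-05, edgeR), 0.55 ± 0.11 at 7 h (adjusted p = 0.000214, edgeR), 0.08 ± 0.13 at 9 h and 0.07 ± 0.16 at 11 h. Both calls held without each library in turn. The effect differed among the time points (adjusted p = 0.0182, edgeR; 15.4% of all genes were called in that test), and this held in all 24 fits that left out a library, with an adjusted p of at most 0.0665.

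*EPCAM* fell between 5 and 9 h. The EtOH libraries ranged from 7.20 to 11.1 CPM with a median of 9.04, from at least 71 counts each. The dex libraries held 7.11 and 8.97 CPM at 1 h, 8.51 and 8.57 at 3 h, 5.46 and 5.38 at 5 h, 5.32 and 4.09 at 7 h, 4.42 and 4.86 at 9 h, and 8.04 and 6.37 at 11 h. The 6 dex libraries from 5 to 9 h were below every EtOH library. Log2 fold changes were -0.84 ± 0.22 at 5 h (adjusted p = 0.00428, edgeR), -0.95 ± 0.21 at 7 h (adjusted p = 0.000867, edgeR), where EtOH was 1.93-fold above dex, and -0.34 ± 0.23 at 11 h (adjusted p = 0.533, edgeR). The average was -0.55 ± 0.09 (adjusted p = 8.05e-06, edgeR). The call at 5 h was lost without EtOH replicate 2 (adjusted p = 0.126) and that at 9 h (0.0594) without dex replicate 1 (0.354) or 2 (0.278), with DESeq2 (0.249) and on the most counted transcript (0.479). The difference of the effect among time points did not pass (adjusted p = 0.2, edgeR).

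*CDH2* and *VIM*, the mesenchymal cadherin and filament, were called at no time point by edgeR or DESeq2, and their smallest unadjusted p was 0.0704 and 0.0687. *CDH2* ranged from 153 to 180 CPM in EtOH (median 167) and from 144 to 176 in dex (median 161), and its averaged log2 fold change was -0.05 ± 0.04 (adjusted p = 0.377, edgeR). *VIM* ranged from 634 to 781 CPM in EtOH (median 717) and from 644 to 866 in dex (median 678), with an average of -0.04 ± 0.04 (adjusted p = 0.502, edgeR). The per-time effects spanned -0.19 to 0.11 for *CDH2* and -0.17 to 0.28 for *VIM*. At 11 h the *VIM* libraries held 634 and 682 CPM in EtOH and 714 and 866 in dex; the value was called without dex replicate 1 (log2 fold change 0.42, adjusted p = 0.000765, edgeR) and in the fit over 24 libraries (0.26, adjusted p = 0.0627, edgeR). Without EtOH replicate 1 at 9 h *VIM* was called lower (-0.19, adjusted p = 0.0916).

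*FN1* rose at 5, 7 and 9 h. The EtOH libraries ranged from 331 to 474 CPM with a median of 387. The dex libraries held 415 and 402 CPM at 1 h, 409 and 375 at 3 h, 584 and 439 at 5 h, 515 and 531 at 7 h, 443 and 442 at 9 h, and 452 and 469 at 11 h. Both dex libraries were above both EtOH libraries of their time at the 4 later time points and at neither of the first ones. The log2 fold change was -0.15 ± 0.10 at 3 h, 0.48 ± 0.11 at 5 h (1.40-fold; adjusted p = 0.00121, edgeR), 0.40 ± 0.07 at 7 h (adjusted p = 9.05e-05, edgeR), 0.32 ± 0.12 at 9 h (adjusted p = 0.0899, edgeR) and 0.31 ± 0.13 at 11 h (adjusted p = 0.22, edgeR). The average was 0.21 ± 0.05 (adjusted p = 0.000714, edgeR). The effect differed among time points (adjusted p = 0.0218, edgeR) and did so in all 24 fits without a library, with an adjusted p of at most 0.0877. The call at 5 h was lost without dex replicate 1 (adjusted p = 0.142) and that at 9 h without dex replicate 1 (0.52) or 2 (0.475), with DESeq2 (0.174), with a filter of 10 counts (0.104) and on the most counted transcript (0.179), while 11 h was called without dex replicate 1 (0.00533) or 2 (0.0829).

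In the vehicle cells alone, none of the 10 genes was called different among the 6 time points by edgeR or DESeq2, which gave no adjusted p for *SNAI2*, *TWIST1* and *EPCAM*, and by edgeR 1, *SNAI1*, had an unadjusted p under 0.05. Of all 15337 genes tested, 0.0522% were called by edgeR in this vehicle test, and 1863 had an unadjusted p under 0.05. By edgeR, 3 of the 10 had a dex effect that differed among time points, *CDH1*, *FN1* and *SNAI1*, against 15.4% of all genes. In that test 7 of the 10 had an unadjusted p under 0.05, as did 3742 of all 15337 genes. DESeq2 called *CDH1*, *FN1* and *VIM* (adjusted p = 0.0952) and not *SNAI1* (0.138). By edgeR, *VIM* did not pass (adjusted p = 0.152); it did without EtOH replicate 1 at 9 h (0.0958) or dex replicate 1 at 11 h (0.0196).

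**Figure D4:**
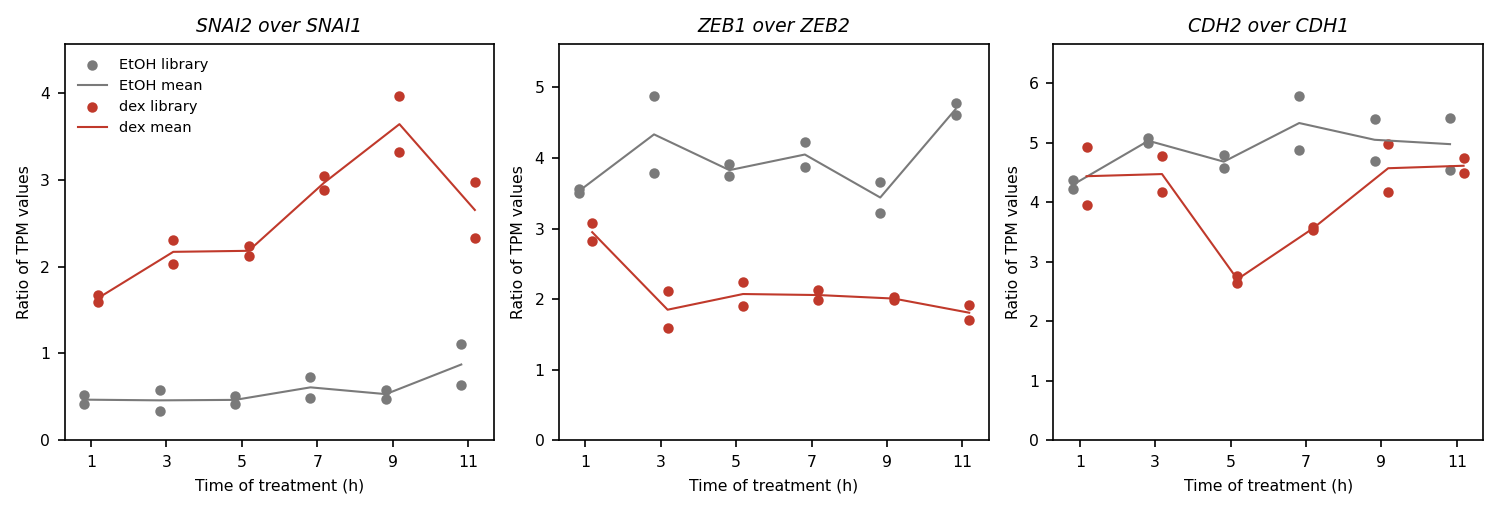
Ratio of TPM values within each library against hours of treatment, for *SNAI2* over *SNAI1*, *ZEB1* over *ZEB2* and *CDH2* over *CDH1*; points are libraries, lines are means of 2 libraries, grey is EtOH and red is dex. The *CDH2* over *CDH1* ratio of the dex libraries was lowest at 5 h, at 2.65 and 2.76.

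The balance within each gene pair was read from TPM ratios within libraries, given as a description with no test, since both genes of each pair were tested above. The *SNAI2* over *SNAI1* ratio was 0.34 to 1.10 in EtOH (median 0.512) and 1.60 to 3.96 in dex (median 2.32). On the TPM scale *SNAI1* was thus the higher SNAI gene in each EtOH library except replicate 2 at 11 h, and *SNAI2* in all 12 dex libraries. Part of this order rests on transcript length, which is 2010 and 626 bases for *SNAI2*. In the dex libraries at 1 h *SNAI2* had 83 and 69 counts and *SNAI1* had 87 and 70. In EtOH replicate 2 at 11 h they had 30 and 48. In all other libraries the counts gave the same order as TPM. The *ZEB1* over *ZEB2* ratio was 3.21 to 4.88 in EtOH (median 3.83) and 1.58 to 3.07 in dex (median 2.01). Neither ratio overlapped between treatments, and *ZEB1* stayed the more abundant ZEB gene in every library. The *CDH2* over *CDH1* ratio, often used as an index of cadherin switching, was 4.22 to 5.78 in EtOH (median 4.83) and 2.65 to 4.98 in dex (median 4.17). It overlapped between the treatments, and only the dex libraries at 5 h (2.65 and 2.76), at 7 h (3.54 and 3.58) and 1 each at 1 h (3.95), 3 h (4.18) and 9 h (4.16) were below the lowest EtOH library.

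The transcripts of each gene gave the same direction as the sum where they were called. Of 49 transcripts of the 10 genes that passed the filter, 21 were called higher and 7 lower for the averaged effect, against 11.9% and 12.3% of all 56380 transcripts tested. The 49 are not independent, and 12 of the 21 were transcripts of *FN1*. Both *SNAI2* transcripts, with 51.2% and 48.8% of its counts, were higher, by a log2 fold change of 2.77 and 2.69. For *FN1*, 12 of 13 transcripts were called, and for *ZEB2* 4 of 5, for *ZEB1* 4 of 9, for *EPCAM* 3 of 3, for *CDH1* 2 of 5 and for *SNAI1* 1 of 1. No transcript of *CDH2*, *VIM* or *TWIST1* was called. Among the transcripts with at least 10% of a gene's counts, the 4 of *CDH1* held 44.4%, 29.7%, 12.3% and 11.8%, with averaged log2 fold changes of 0.27, 0.20, 0.22 and 0.22, of which the first 2 were called. The 3 of *EPCAM* held 40.7%, 29.4% and 26.3%, at -0.53, -0.59 and -0.56. In *ZEB2* the 4 held 27.7%, 20.6%, 20.2% and 19.2%, at 0.59, 0.56, 0.71 and 0.72. In *ZEB1* they held 20.3%, 19.8%, 19.8% and 19.1%, at -0.23, -0.32, -0.27 and -0.20, and the last was not called. The 3 of *FN1* held 10.5%, 10.1% and 10.1%, at 0.22, 0.15 and 0.21. The pair of *CDH2* held 49.9% and 47.6%, both at -0.05, and the 4 of *VIM* held 22.3% to 25.1% each, from -0.08 to -0.03. The single such transcripts of *SNAI1* and *TWIST1* were at 0.55 and -0.38. Transcripts of a gene share exons, and how reads matching several of them were placed is not stated, so no isoform-specific change is read from these values. The antisense genes *VIM-AS1* and *ZEB1-AS1* had 6.55% and 15.6% as many counts as their partners, and their averaged log2 fold changes were 0.01 ± 0.07 (adjusted p = 0.969, edgeR) and -0.10 ± 0.09 (adjusted p = 0.412, edgeR). *ZEB2-AS1* had at most 1 count in a library and was not tested. Strand use in the counting was not stated, so reads of a gene and its antisense partner may not be fully separated.

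Promoter sequence was shown for the members with a RefSeq start window outside their own exons, because the SNAI and ZEB factors and GR act through short DNA motifs. The windows cover the 250 bases before a RefSeq start (GRCh38.p14), trimmed to the stretch outside exons of the gene, and are given 5′ to 3′ on the gene's strand. Capitals mark matches on either strand to the E-box CAGGTG, the palindromic glucocorticoid response element, the AP-1 site TGANTCA or the GC box GGGCGG; matches can overlap.
FN1, chr2:215436173-215436318, minus strand: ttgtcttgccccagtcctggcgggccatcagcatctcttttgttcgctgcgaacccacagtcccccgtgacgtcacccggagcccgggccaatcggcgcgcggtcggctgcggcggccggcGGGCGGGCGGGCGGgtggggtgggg
VIM, chr10:17227991-17228240, plus strand: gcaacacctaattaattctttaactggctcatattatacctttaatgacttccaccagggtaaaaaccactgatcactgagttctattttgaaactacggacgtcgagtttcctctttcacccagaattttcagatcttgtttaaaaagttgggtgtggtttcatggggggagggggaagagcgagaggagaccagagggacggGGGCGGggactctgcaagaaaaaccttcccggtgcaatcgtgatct
ZEB1, chr10:31318167-31318416, plus strand: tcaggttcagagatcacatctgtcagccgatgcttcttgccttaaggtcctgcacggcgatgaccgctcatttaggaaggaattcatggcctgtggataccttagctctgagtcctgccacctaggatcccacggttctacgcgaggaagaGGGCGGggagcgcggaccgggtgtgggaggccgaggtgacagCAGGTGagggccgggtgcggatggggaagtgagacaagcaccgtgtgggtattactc
CDH2, chr18:28036642-28036891, minus strand: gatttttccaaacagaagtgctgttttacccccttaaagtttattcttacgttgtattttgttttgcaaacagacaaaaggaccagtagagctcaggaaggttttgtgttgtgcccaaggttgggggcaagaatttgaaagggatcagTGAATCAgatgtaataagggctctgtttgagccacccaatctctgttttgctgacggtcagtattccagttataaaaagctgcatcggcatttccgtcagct

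The stretch before *FN1* held 3 overlapping GC boxes and no other motif, and 85.7% of the *FN1* counts came from transcripts that start within 100 bases of that start. The *VIM* window held 1 GC box, the printed *ZEB1* window 1 E-box and 1 GC box, and the printed *CDH2* window 1 AP-1 site. Transcripts that start within 100 bases of the start held 24.8% of the *VIM* counts and 47.6% of the *CDH2* counts. *ZEB1* and *CDH2* had further windows, which are not printed. The other *CDH2* window held 1 GC box and no other motif. The printed *ZEB1* start is a minor one, 708 bases from the nearest start of a counted transcript. The window of a start near transcripts with 21.4% of the *ZEB1* counts held no motif. In the 250 bases before the start used by transcripts with 74.8% of the *ZEB1* counts, which overlap its own exons and are not printed, there were 2 E-boxes, 242 and 85 bases before the start. The remaining *ZEB1* windows held no E-box. No window of *ZEB2*, *FN1* or *VIM* held an E-box, a glucocorticoid response element or an AP-1 site. Over all 35116 windows of this length, 17.5% held the E-box, 0.327% the glucocorticoid response element, 6.57% the AP-1 site and 42.6% the GC box. A match is a description of these letters and not of binding. The sequence set used here held no window for the other 5 genes, *CDH1*, *SNAI1*, *SNAI2*, *TWIST1* and *EPCAM*, so their promoters were not analysed.

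**Figure D5:**
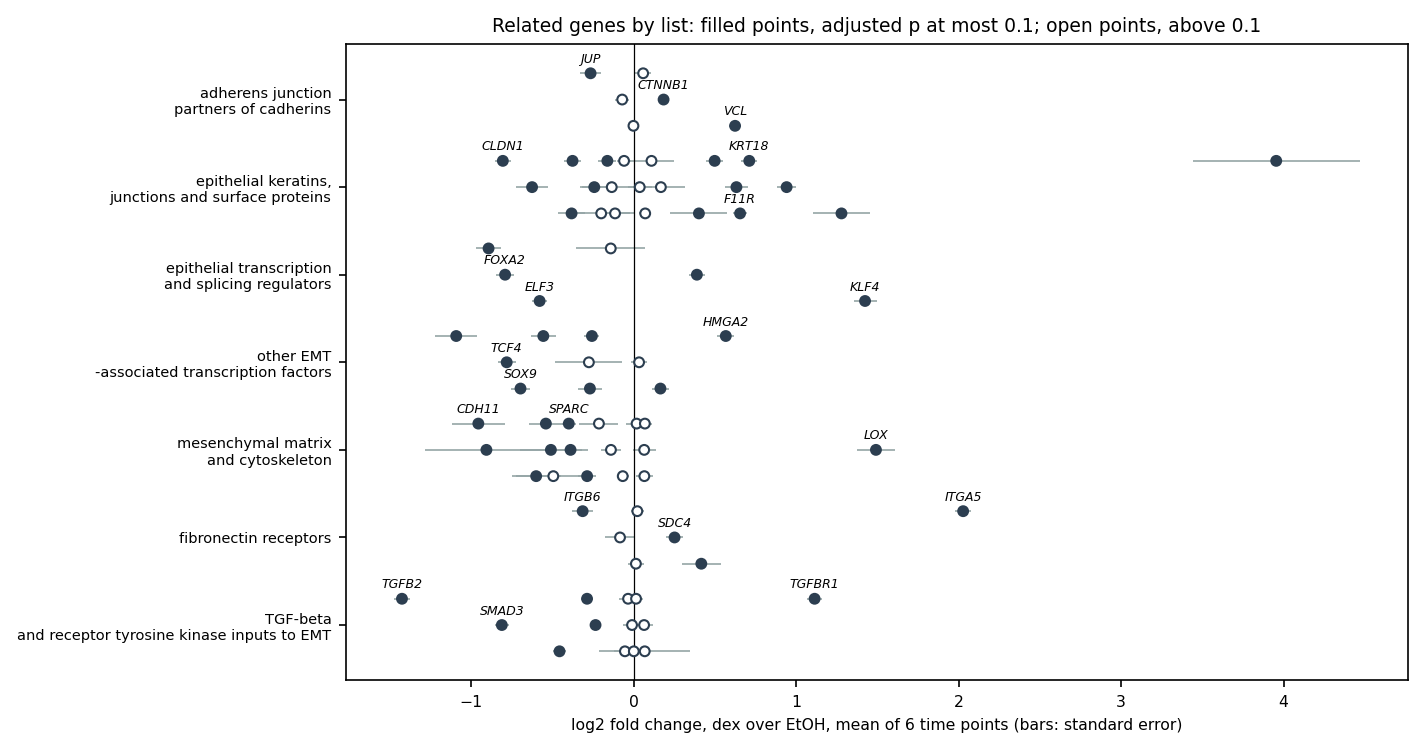
Dex effect averaged over 6 time points (log2 fold change with its standard error) for the tested genes of 7 lists related to the 10 members; filled points passed an adjusted p of 0.1, open points did not, and genes named in the text are labelled. Points of both signs stand in every list.

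Genes around the 10 members moved in both directions in each of 7 hand-written lists. The lists were also chosen with earlier results of these data known. They were read as a description, with counts beside the background of 16.9% higher and 18.9% lower. Among 6 adherens junction partners of the cadherins, 2 were higher and 1 lower, with a list median of 0.03. *VCL* (vinculin, which links junctions to actin) had an averaged log2 fold change of 0.62 ± 0.04 (adjusted p = 6.45e-14, edgeR) and *CTNNB1* (beta-catenin) of 0.18 ± 0.04, while *JUP* (plakoglobin) was at -0.27 ± 0.07. *CTNNA1* and *CTNND1*, which encode alpha- and delta-catenin, were not called.

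Of 30 epithelial keratin, junction and surface genes, 22 were tested, 8 were higher and 6 lower, and the list median was 0.05. *KRT18*, a simple-epithelium keratin, was higher by 0.71 ± 0.05 (adjusted p = 1.63e-12, edgeR) and *F11R*, a tight junction adhesion molecule, by 0.65 ± 0.04 (adjusted p = 2e-13, edgeR). *CLDN1*, a tight junction claudin, was lower, from 90.9 ± 9.15 CPM (SD, n = 12) in EtOH to 53.3 ± 14.1 in dex, at -0.81 ± 0.05 (adjusted p = 1.75e-13, edgeR). *CLDN7*, counted among the 8 and singled out after its values were seen, had at most 28 counts in a library, with 0.121 ± 0.153 CPM (SD, n = 12) in EtOH and 1.49 ± 0.853 in dex. It passed the filter only through its dex libraries, so these values are a description. Of 12 epithelial transcription and splicing regulators, 6 were tested, 2 higher and 3 lower. *KLF4*, a zinc finger factor of epithelial differentiation, was higher by 1.42 ± 0.07 (adjusted p = 1.49e-15, edgeR), and *FOXA2* (-0.79 ± 0.06) and *ELF3* (-0.58 ± 0.04), epithelial lineage factors, were lower. *ESRP1*, *ESRP2*, *GRHL2*, *GRHL3*, *OVOL1* and *OVOL2*, splicing and transcription factors that help to hold epithelial cells in their state, had at most 11 counts in a library and were not tested.

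Of 14 other EMT-associated transcription factors, 10 were tested, 2 higher and 6 lower, with a list median of -0.27. *TCF4*, an E-protein, was lower by a log2 fold change of -0.78 ± 0.06 (adjusted p = 4.94e-12, edgeR) and *SOX9* by -0.70 ± 0.06, while *HMGA2*, a chromatin protein, was higher by 0.57 ± 0.05 (adjusted p = 6.68e-10, edgeR). Of 20 mesenchymal matrix and cytoskeleton genes, 17 were tested, 1 higher and 8 lower, with a median of -0.29. *LOX*, which crosslinks collagen, went from 2.43 ± 0.479 CPM (SD, n = 12) in EtOH to 7.45 ± 3.31 in dex, at 1.49 ± 0.12 (adjusted p = 2.41e-11, edgeR). *SPARC*, a matrix glycoprotein, was lower at -0.40 ± 0.04, and *CDH11*, a mesenchymal cadherin, at -0.96 ± 0.16 (adjusted p = 3.08e-05, edgeR). The fibroblast markers *COL1A1*, *COL3A1* and *THY1* are among the 8 that were lower, and their part in the count was not tested.

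Of 7 fibronectin receptors, 3 were higher and 1 lower. *ITGA5*, the alpha subunit of the main fibronectin integrin, rose from 38.3 ± 3.51 CPM (SD, n = 12) in EtOH to 181 ± 85.2 in dex, with an averaged log2 fold change of 2.03 ± 0.05 (adjusted p = 2.35e-22, edgeR) and 2.86 at 5 h. *SDC4*, a fibronectin co-receptor, was higher by 0.25 ± 0.05 and *ITGB6* lower at -0.31 ± 0.06, while *ITGB1*, the partner of *ITGA5*, was at 0.02 ± 0.04 (adjusted p = 0.739, edgeR). Of 13 TGF-beta and receptor tyrosine kinase genes that feed into EMT, 1 was higher and 5 lower, with a median of -0.03. The ligand *TGFB2* fell from 114 ± 7.72 CPM in EtOH to 48.0 ± 29.8 in dex, at -1.43 ± 0.05 (adjusted p = 1.5e-19, edgeR), and the signal transducer *SMAD3* was lower at -0.81 ± 0.04 (adjusted p = 6.84e-15, edgeR). The receptor *TGFBR1* was higher by 1.11 ± 0.04 (adjusted p = 1.06e-17, edgeR).

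As a description of pattern, with no test, the genes whose log2 CPM followed each member most closely over the 24 libraries were listed, which share library, depth and treatment with it. For *SNAI2* these were *SYBU* (r = 0.98), *FAM43A* (0.978) and *CAVIN2* (0.978), with averaged log2 fold changes of 3.11, 2.77 and 2.56. For *ZEB2* they were *NT5DC3* (0.935), *JCAD* (0.926) and *PRRG4* (0.924). For *EPCAM* they were *ENO2* (0.899), *DCDC2* (0.895) and *SEMA4G* (0.889), and for *ZEB1* they were *TMED8* (0.897), *TRIM59* (0.895) and *TNPO1* (0.888). For *CDH1* they were *ATG4A* (0.871) and *CCDC80* (0.851), and for *SNAI1* they were *S100A10* (0.862), *BECN1* (0.86) and *ACTB* (0.844). Those of *VIM* were *NSRP1* (0.869), *ADCY3* (0.829) and *KPNB1* (0.828), and those of *FN1* were *WNK1* (0.845), *SBDS* (0.837) and *CISD1* (0.824). *CDH2* had the lowest values, with *TMEM251* (0.766), *GART* (0.755) and *TOP3A* (0.748). *TWIST1* was below the 5 CPM used for this comparison.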

How the data were processed

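RNA-seq was analysed for 24 A549 libraries, 2 per treatment and time point. Libraries were stranded and poly-A selected, and the single-end reads had 50 bases. The authors aligned them with Bowtie to the transcripts of GENCODE release 19 and took counts from samtools; the deposited values are raw counts per transcript, not divided by library size or length. How reads matching several transcripts were placed, and whether strand was used in counting, is not given in the sources used here. The labels give hg19. The paper describes triplicates, and the labels used here give 2 replicates.

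Transcripts were joined to symbols through GENCODE release 29 by identifier without version (110261 of 119207 transcripts, 94.1% of counts) and summed per gene. Genes were kept by filterByExpr over 12 groups and tested with edgeR 4.0.16 (TMM, robust quasi-likelihood F-test, Benjamini-Hochberg over 15337 genes, threshold 0.1), each time point by itself, plus a fit over 24 libraries for the averaged effect and for differences among time points (5 degrees of freedom). Each standard error was obtained as |log2 fold change| over the root of its F. CPM values are TMM-scaled. TPM used release 29 lengths, and 37.4% of matched transcripts had the same version there. With 2 libraries per group, calls rest on dispersions shared between genes. On simulated counts for 15337 genes, the 5 h test recovered 49.3%, 88.1% and 100% of genes simulated with changes of 1.5-fold, 2-fold and 4-fold, while 8.14% of 172 calls fell on unchanged genes. For the average over 6 time points, 100% of each were recovered and 9.09% of 220 calls fell on unchanged genes. The changed genes were drawn only from better counted genes. All genes had the same dispersion, and each change was the same at all time points. These rates may therefore not hold for genes with few counts, such as *TWIST1*, or where replicates differ more. Same-numbered replicates were not treated as paired in the main fits, although the paper describes the vehicle control as paired. The correlations of their deviations ran from -0.068 to 0.157 over the 6 time points. Such correlations cannot show whether the samples were paired.

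The members and the gene lists were chosen with earlier results of these data known. Text names all members, the 3 genes of each list with the smallest adjusted p among those called, the 3 genes most correlated with each member above 5 CPM, antisense partners, and transcripts with at least 10% of a gene's counts. *CLDN7*, *CTNNA1*, *CTNND1*, *ITGB1* and other genes named beside these counts were added after their values were seen. *CD24* and *PECAM1* were not analysed here, and 1 gene taken off a list and 1 correlated with *CDH1* are not reported here. The alternatives were DESeq2 1.42.0, its size factors in edgeR, no filter, a filter of 10 counts, a single fit, a replicate block, the most counted transcript, a threshold of 0.05 and leaving out each library. The values of single transcripts were chosen after seeing the data. Counting precision is limited by totals of 6708864 to 13748598 per library. Tools were R 4.3.3, Python 3.11.15 and matplotlib 3.10.9.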

Additional observations from a re-analysis of the deposited data

Results flagged for a closer look

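Of the 10 genes, 3 had a dex effect that differed among the 6 time points in edgeR's test of that difference: *CDH1* (adjusted p = 0.0182), *FN1* (0.0218) and *SNAI1* (0.0698; 0.138 with DESeq2). For *CDH1* the effect was largest at 5 h and near 0 at 9 and 11 h, and for *FN1* it was negative and not called at 1 and 3 h and positive from 5 h on.

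Among the related genes named in the report, the test of the difference among time points passed for *ITGA5* (adjusted p = 1.42e-10), *TGFB2* (5.7e-09), *SMAD3* (3.06e-05), *ELF3* (6.03e-05), *KRT18* (6.55e-05), *VCL* (0.00011) and *TCF4* (0.000123), all by edgeR. It also passed for *CLDN1* (0.000497), *TGFBR1* (0.000802), *SPARC* (0.000907), *F11R* (0.00121), *SDC4* (0.00231), *SOX9* (0.00261), *FOXA2* (0.0153) and *LOX* (0.0177). At 1 h the log2 fold change of *ELF3* was -1.14 and that of *TGFB2* was -0.02, and at 5 h they were 0.06 and -1.47. *SDC4* was at -0.25 at 3 h and at 0.61 at 5 h. Across all genes tested, 15.4% passed the same test.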

How the results depend on the processing

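The 25 calls of the 10 genes over the 6 time points became 17 with DESeq2, 18 with the most counted transcript, 24 without a filter or with a filter of 10 counts, 27 in a single fit, and 20 to 24 without a replicate of one treatment. Of these calls, 13 were kept without each library in turn and 12 under every alternative. The averaged effect was called for 7 or 8 of the 10 under each alternative, and the effect differed among time points for 5 without a filter and for 2 to 5 without 1 library (5 without dex replicate 1 at 11 h). Of 2320 values of single genes under an alternative, 2225 kept their side of the threshold, 73 lost a call, 22 gained one and none reversed a call, and 21 uncalled values changed sign. Over all genes, the counts called at 3, 5, 7 and 9 h were 1208, 2348, 2464 and 1831 with DESeq2 against 2159, 3834, 4324 and 3033. At 1 h, 162 genes were called, 247 without a filter and 583 with the replicate block, and at 11 h 1399 were called and 2478 in a single fit. Without 1 replicate these counts ran from 88 to 691 at 1 h, 1290 to 2598 at 3 h, 2756 to 3333 at 5 h, 2006 to 4821 at 7 h, 1056 to 5297 at 9 h and 720 to 4978 at 11 h, the highest without dex replicate 1 and 2838 without dex replicate 2. Genes whose effect differed among time points ran from 1654 to 3968 against 2360. In EtOH, 8 genes differed among time points, 276 with DESeq2, 1237 without a filter, 19 with the replicate block, 3 at a threshold of 0.05 and 1 to 424 without 1 library, and none of the 10 members did in any of them. With the replicate block the total of member calls was again 25 of 60, and whether shared numbers mark paired samples is not known. The cause of these changes was not tested. Depth limits *TWIST1* and *SNAI2* in EtOH most, at 6 to 30 counts per library.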
